A study of Mus musculus with 6 samples.

Results

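The tumour necrosis factor (TNF) ligand and receptor superfamilies were examined in L-GMP cells of mouse acute myeloid leukaemia with and without Prmt6, a gene encoding a protein arginine methyltransferase. Members were taken by symbol, as every row of the deposited expression table starting with Tnfsf or Tnfrsf together with Tnf, Lta, Ltb, Ltbr, Fas, Fasl, Cd27, Cd40, Cd40lg, Cd70, Eda2r, Edar, Ngfr and Relt. This gave 46 members, 18 ligands and 28 receptors, of 30037 named genes. The rule itself used no measured value, but the members were chosen with earlier results of these data known. Poly(A) RNA had been sequenced from 6 libraries, 3 from wild-type (WT) and 3 from Prmt6-/- (knockout) leukaemia. All were L-GMP cells, a progenitor-like fraction resembling granulocyte-macrophage progenitors, sorted from the bone marrow of AML mice aged 8 to 10 weeks, per the labels. How the leukaemia was started, the strain, and whether each library came from its own animal are not given in the sources used here, and p-values therefore reflect no more than the scatter among these 6 libraries, which may be technical.

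TNF ligands are mostly membrane-bound trimers, some of which are cut free, and they act by clustering their receptors. Receptors with a death domain can recruit FADD and caspase-8 or the adaptor TRADD, and the others mainly recruit TRAF proteins and activate NF-kB. Several genes of the family are themselves NF-kB targets, and in bone marrow TNF and FAS act on normal and leukaemic progenitors.

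Values are the deposited log2 values, which the authors had normalized between libraries, and they are not per length. On this scale genes of low level are pulled together, so differences of low genes are understated. A gene was tested where at least 3 libraries had a value of at least 1, and it was called where the limma adjusted p was under 0.05. Differences are knockout minus wild type. Library medians of tested genes lay between 7.72 and 7.75, and the read depth is unknown. Prmt6 itself stood at 7.82, 7.60 and 7.41 in wild-type libraries 1 to 3 and at 5.42, 5.46 and 5.48 in the knockout libraries, lower in every library labelled knockout (difference -2.16, limma adjusted p = 3.57e-06). For Prmt6 the log2 fold change in the authors' deposited table is -7.66, a far larger fall than on the compressed scale of the library values. All 8 markers listed for L-GMP cells had a mean above 5, with the progenitor receptor Kit going from 10.14 to 9.85 and Cd34 from 10.44 to 10.47, neither called. The granule protease genes Elane and Ctsg were called higher and the receptor gene Csf3r lower. Mpo was not called, with a difference of -1.11 and widely spread libraries. They read 15.27, 15.19 and 16.29 (wild type) against 13.34, 14.37 and 15.72 (knockout). Prtn3 (0.21) and Fcgr3 (0.02) were not called either. The authors' deposited table calls Kit lower and Prtn3 higher. The groups are bulk RNA of a sorted fraction, in which fewer cells of a type and less RNA per cell cannot be told apart.

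Of the 46 members 35 could be tested, and 16 were called, 9 higher and 7 lower in the knockout. That is 45.7% of those tested, where 33.0% of all 15454 genes tested were called, 15.0% as higher and 18.0% as lower. The median difference over the tested members was 0.00 on the log2 scale, beside 0.01 over all genes tested. On the compressed scale of the library values Ltb and Fas differed by at least 1 in size and were called, as were 1.95% of all genes tested, and the largest rise was that of Tnfrsf26, 0.85. The order depends on the scale. In the authors' deposited table Tnfrsf25 (log2 fold change -3.12), Tnfsf12 (2.15), Tnfrsf12a (1.19), Tnfsf13 (-1.12) and Tnfrsf13b (-1.01) are also called with a size of at least 1. There the called rises of Tnfsf12, Tnfrsf12a and the row Tnfsf12Tnfsf13 (0.98) exceed that of Tnfrsf26 (0.97). The groups did not overlap for 23 of the 35 members (47.4% of all genes tested). All 16 calls fell on the 25 members with a mean of at least 5 (64.0%, where 42.9% of such genes were called). None of the 10 tested members with a mean under 5 was called (10.6% of such genes were).

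**Figure D1:**
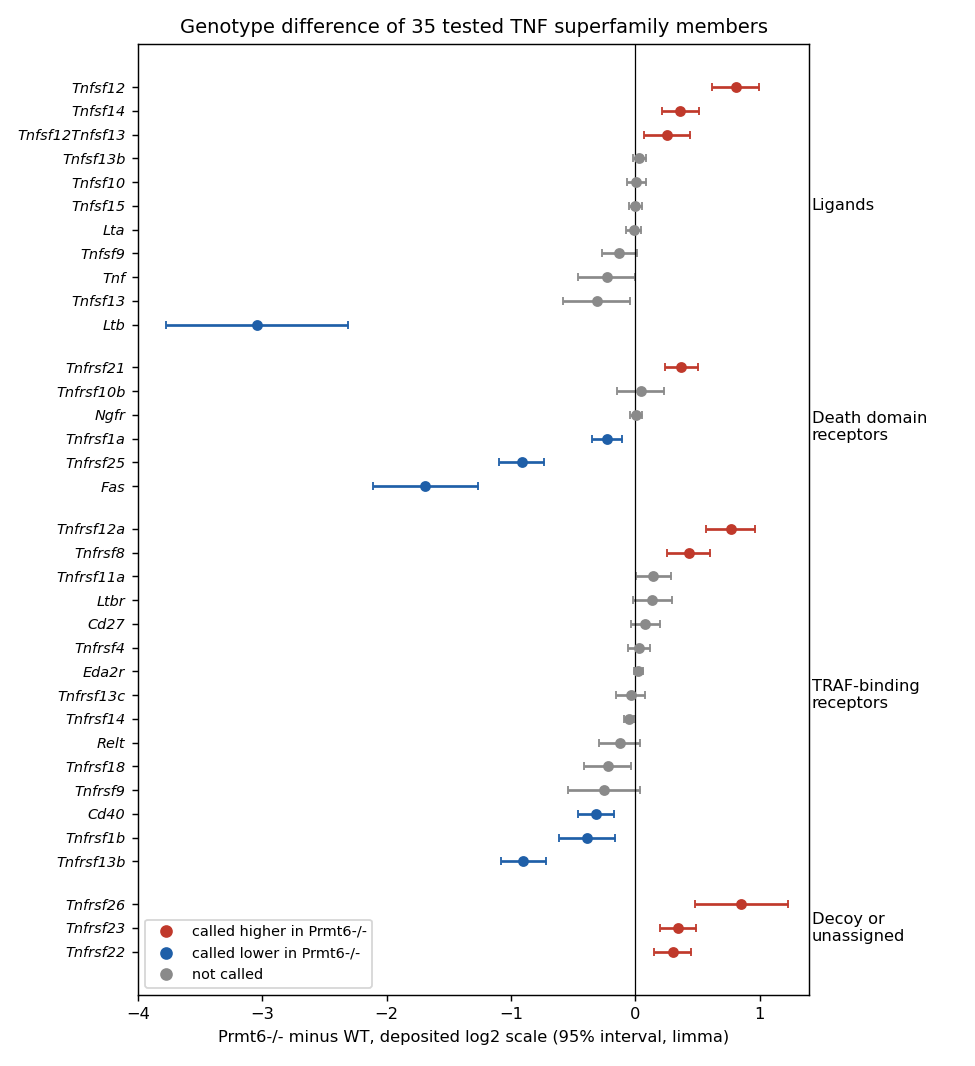
Differences of the 35 tested members (knockout minus wild type, deposited log2 units) with 95% intervals from limma, grouped by role and coloured by call. Ltb at -3.04 and Fas at -1.69 stand farthest from 0, and the 3 tested receptors of the decoy or unassigned group all lie above it.

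Among the ligands 3 were called higher, 1 lower and 7 not, and a further 7 were not tested. The share called was 36.4% of the ligands tested, close to the 33.0% of all genes. Ltb, lymphotoxin beta, which anchors lymphotoxin alpha at the cell surface in the heterotrimer bound by Ltbr, had the largest difference of any member. On the log2 scale its libraries read 8.83, 9.15 and 10.25 (wild type) against 6.002, 6.43 and 6.68 (knockout). The lowest wild-type library lay far above the highest knockout library, although the wild-type libraries themselves spread widely. Means were 9.41 ± 0.75 and 6.37 ± 0.34 (SD, n = 3), a difference of -3.04 (SE 0.32, 95% interval -3.77 to -2.31, limma adjusted p = 0.000170). Leaving out single libraries gave differences from -3.33 to -2.62. The authors' deposited table lists Ltb with a log2 fold change of -4.88, a larger change than on the compressed scale of the library values. An exact two-sided permutation test gave p = 0.1 for Ltb, the smallest that 3 against 3 libraries allow, and the same p for every other member that was called.

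Ltb lies on chromosome 17 (35194439 to 35196320, GRCm38, plus strand), between Lst1, a leukocyte transcript 5999 bases away, and Tnf, 3060 bases away. Lst1 fell too, from 9.95 to 7.93 (difference -2.03), whereas Tnf was not called. The RefSeq promoter table (GRCm38.p6) held windows for 36 of the 46 members. The 250 bases before the RefSeq start were searched on both strands for the NF-kB consensus (the kB motif). RefSeq starts can differ from the GENCODE positions given here, and the GENCODE start of Ltb, 35194439, lies inside its window. Ltb, Tnfrsf8 and Tnfrsf9 held a match, 3 of 36, where 1204 of 27025 genes (4.46%) did. These windows are shown with the match in capitals, beside that of Fas, the other member that differed by at least 1 on the library scale, in which no match was found. They are Ltb at chr17:35194257-35194506 (plus strand), Tnfrsf8 at chr4:145315165-145315414 (minus strand), Tnfrsf9 at chr4:150927749-150927998 (plus strand) and Fas at chr19:34290409-34290658 (plus strand).
Ltb: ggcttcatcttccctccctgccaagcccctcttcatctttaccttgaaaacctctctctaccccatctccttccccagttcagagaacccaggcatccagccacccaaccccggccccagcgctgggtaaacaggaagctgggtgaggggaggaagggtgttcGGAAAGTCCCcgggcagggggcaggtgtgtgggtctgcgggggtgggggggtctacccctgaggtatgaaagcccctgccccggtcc
Tnfrsf8: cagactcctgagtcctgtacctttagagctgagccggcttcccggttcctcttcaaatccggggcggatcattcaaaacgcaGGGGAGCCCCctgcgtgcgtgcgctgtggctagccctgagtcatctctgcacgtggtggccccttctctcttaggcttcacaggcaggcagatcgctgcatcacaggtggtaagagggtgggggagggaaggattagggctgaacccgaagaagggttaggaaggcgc
Tnfrsf9: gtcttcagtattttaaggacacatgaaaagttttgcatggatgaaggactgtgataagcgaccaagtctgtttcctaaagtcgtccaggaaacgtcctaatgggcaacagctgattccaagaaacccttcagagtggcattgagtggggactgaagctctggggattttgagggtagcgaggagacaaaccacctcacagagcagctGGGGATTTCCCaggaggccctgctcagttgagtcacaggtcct
Fas: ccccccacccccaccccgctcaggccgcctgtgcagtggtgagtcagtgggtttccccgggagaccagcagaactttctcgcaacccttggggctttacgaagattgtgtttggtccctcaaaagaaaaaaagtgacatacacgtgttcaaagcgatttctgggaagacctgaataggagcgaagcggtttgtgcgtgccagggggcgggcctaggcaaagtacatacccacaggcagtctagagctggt
The Ltb match begins 87 bases before the RefSeq start, reads as the motif on the other strand, and belongs to a gene that fell. The Tnfrsf8 match, 168 bases before the start, also reads as the motif on the other strand, and belongs to a gene that rose. Tnfrsf9, which was not called, has 2 windows in the table. In the one shown, overlapping matches begin 43 and 42 bases before its start, and the other, at chr4:150919905-150920154, holds none. Both windows lie inside the gene as GENCODE places it (150914562 to 150946102, plus strand). A looser form on either strand, with 3 G, any 5 bases and 2 C, was present for 25 of the 36 members and for 48.7% of all genes. It was present for all 6 lower members that had a window and for 4 of 6 higher ones.

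Tnf, the founding cytokine of the family and an activator of NF-kB and cell death through Tnfrsf1a and Tnfrsf1b, was not called. On the log2 scale its libraries read 10.27, 10.25 and 10.42 (wild type) against 9.84, 10.18 and 10.22 (knockout). The groups lay close without overlapping, with the highest knockout library just below the lowest wild-type library. The difference was -0.23 (SE 0.10, 95% interval -0.46 to 0.0016, limma adjusted p = 0.119), or -0.11 without knockout library 1 and -0.15 after quantile normalization. The authors' deposited table gives Tnf a log2 fold change of -0.26 (adjusted p = 0.1). Lta, lymphotoxin alpha, is the third gene of this locus, 1157 bases beyond Tnf, and stood near 1.80 and 1.79 in wild-type and knockout libraries, a low level on this compressed scale. Its difference of -0.01 turned to 0.01 without wild-type library 3.

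Tnfsf12, which encodes TWEAK, the ligand of the receptor Fn14, rose. On the log2 scale its libraries read 6.16, 5.96 and 5.92 (wild type) against 6.87, 6.89 and 6.71 (knockout), so that every knockout library lay above every wild-type library. The difference was 0.81 (SE 0.08, limma adjusted p = 0.000145), and the authors' deposited table lists a log2 fold change of 2.15. Tnfsf14, or LIGHT, a ligand of Ltbr and Tnfrsf14, rose from 7.49 ± 0.06 to 7.86 ± 0.06 (SD, n = 3; difference 0.36, limma adjusted p = 0.00276). Tnfsf13, or APRIL, a ligand of Tnfrsf13b, had values of 5.87, 5.80 and 6.30 (wild type) against 5.64, 5.69 and 5.71 (knockout). The difference, -0.31, missed the threshold (limma adjusted p = 0.0745), though it passed without wild-type library 2 (-0.40, adjusted p = 0.0395), and when replicate number was fitted as a block (0.0460). Without wild-type library 3 it was -0.16 (adjusted p = 0.112 by limma). The authors' deposited table calls Tnfsf13 lower (log2 fold change -1.12, adjusted p = 0.0205).

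Tnfsf12 and Tnfsf13 neighbour each other on chromosome 11 and share a read-through transcript, which the table lists as Tnfsf12Tnfsf13 and GENCODE as Tnfsfm13. Of the 31-base words in Tnfsf12 transcripts 47.4% also occur in the read-through gene, and of those in Tnfsf13 58.4%, so the split of reads among the 3 rows is uncertain. The read-through row was called higher by 0.25 (limma adjusted p = 0.0397). This call ended in 10 of 12 alternatives, among them those without any of the 3 wild-type libraries (adjusted p = 0.0890, 0.0594 and 0.110), without knockout library 1 (0.0787), without knockout library 3 (0.107, with a difference of 0.17) and when replicate number was fitted as a block (0.0626).

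The other tested ligands were not called. Tnfsf9, the 4-1BB ligand, differed by -0.13 from a level of 6.53 in the wild type. Tnfsf10, or TRAIL, stood at 3.72 and 3.73, Tnfsf13b, the B-cell survival factor BAFF, near 2.36 in the wild type with a difference of 0.03, and Tnfsf15, or TL1A, at 2.35 in both genotypes. Differences of Tnfsf10 and Tnfsf15 were close to 0, and either sign was seen depending on the library left out (-0.006 to 0.022 and -0.017 to 0.013) and on the normalization. Tnfsf4, Tnfsf8, Tnfsf11 and Cd40lg, ligands known chiefly from lymphocytes, antigen-presenting cells and, for Tnfsf11, bone-forming cells, stayed below the level for testing, with values from -1.97 to 0.73. Fasl, Cd70 and Tnfsf18 were listed at 0 in all 6 libraries. Fasl is the ligand of Fas, Cd70 that of Cd27, and Tnfsf18 that of Tnfrsf18.

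**Figure D2:**
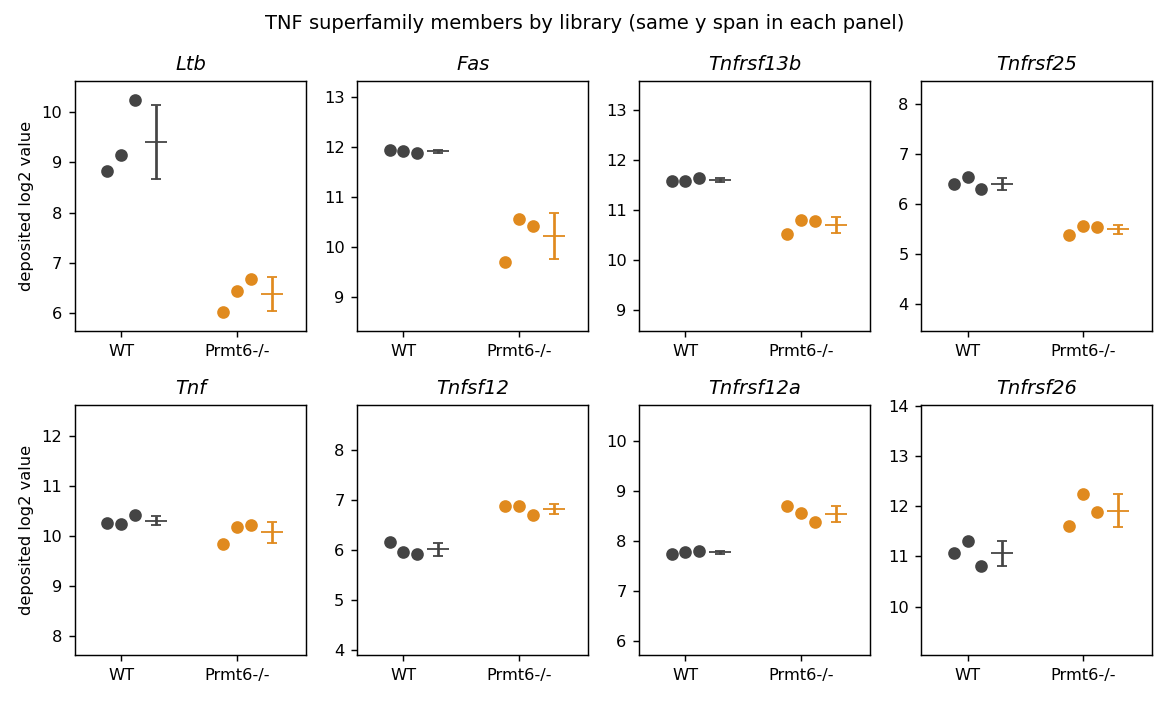
Deposited log2 values of 8 members in each library, wild type in grey and knockout in orange, with the mean and SD of 3 libraries beside the points, on panels of equal span. Knockout points lie below all wild-type points for Ltb, Fas, Tnfrsf13b, Tnfrsf25 and Tnf and above them for Tnfsf12, Tnfrsf12a and Tnfrsf26, and Tnf is the member among these that was not called.

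Death-domain receptors gave 3 lower calls and 1 higher among 6 tested, 66.7% against 33.0% of all genes. Fas, the receptor that starts the extrinsic death pathway through FADD and caspase-8 and a known p53 target, had values of 11.95, 11.92 and 11.89 in the wild type. In the knockout they were 9.70, 10.56 and 10.43. Wild-type libraries were tightly grouped and knockout libraries were not, with library 1 lowest. The difference was -1.69 (SE 0.19, 95% interval -2.11 to -1.27, limma adjusted p = 0.000205), and -1.42 without knockout library 1. For Fas the log2 fold change in the authors' deposited table is -1.85. The gene lies on chromosome 19 (34290666 to 34327772, GRCm38), and its nearest tested neighbours were the lipase Lipa, which fell by 0.71, and the actin gene Acta2, which was not called (-0.08).

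Tnfrsf25, or DR3, the receptor of TL1A, had values of 6.39, 6.53 and 6.29 (wild type) against 5.38, 5.55 and 5.54 (knockout). The groups were well apart, with a difference of -0.91 (SE 0.08, limma adjusted p = 6.79e-05), and the authors' deposited table lists a log2 fold change of -3.12. Tnfrsf1a, the main signalling receptor for TNF, fell slightly from 10.39 ± 0.05 to 10.16 ± 0.02 (SD, n = 3; difference -0.23, limma adjusted p = 0.0102). After quantile normalization that call ended (-0.15, adjusted p = 0.0529). Tnfrsf21, or DR6, was the receptor of this class that rose, from 9.75 ± 0.07 to 10.12 ± 0.04 (difference 0.37, limma adjusted p = 0.00151). Tnfrsf10b, the mouse TRAIL death receptor, stood at 6.05 and 6.09. The difference of Tnfrsf10b, 0.04 (95% interval -0.14 to 0.23), turned to -0.03 without knockout library 3. Ngfr, the low-affinity neurotrophin receptor, lay at 2.20 in both genotypes, with a difference that ran from -0.010 to 0.020 with single libraries left out and turned negative under both other normalizations. Edar, the ectodysplasin receptor, was not tested, at -0.30 to -0.27.

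TRAF-binding receptors gave 2 higher and 3 lower calls among 15 tested, 33.3% against 33.0% of all genes. Tnfrsf13b, or TACI, a receptor for BAFF and APRIL best known from B cells, had values of 11.59, 11.58 and 11.65 (wild type) against 10.51, 10.81 and 10.79 (knockout). No library of either group came near the other. The difference was -0.90 (SE 0.08, limma adjusted p = 7.16e-05). Of 7 B-cell markers 5 were tested in the same libraries, Cd79b was called lower (from 9.56 to 8.42), and none was called higher. The summed log2 level of the list was 9.59 to 9.73 in the wild type and 8.43 to 8.79 in the knockout, carried by Cd79b, while Pax5 was too low to test and the other B-cell receptors of the family, Tnfrsf13c and Tnfrsf17, were low as well. Tnfrsf13c, the BAFF receptor, stood at 4.98 and 4.94, and Tnfrsf17, or BCMA, lay near -1.49 in every library. The part of B cells in the Tnfrsf13b result was not tested.

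Tnfrsf12a, or Fn14, the receptor of TWEAK, rose. It had values of 7.75, 7.78 and 7.81 (wild type) against 8.71, 8.56 and 8.38 (knockout), a difference of 0.77 (SE 0.09, limma adjusted p = 0.000231). All knockout libraries were above all wild-type libraries. Tnfrsf8, or CD30, a receptor known from activated lymphocytes, rose from 6.83 ± 0.07 to 7.26 ± 0.11 (SD, n = 3; difference 0.43, limma adjusted p = 0.00257). Its neighbour on chromosome 4, Tnfrsf1b, 20266 bases away, fell. Tnfrsf1b, the TNF receptor without a death domain, had values of 11.07, 10.97 and 11.02 (wild type) against 10.39, 10.80 and 10.71 (knockout). Its difference of -0.39 passed (limma adjusted p = 0.0153), a call that ended without wild-type library 1 (-0.36, adjusted p = 0.0542). Cd40, the co-stimulatory receptor of antigen-presenting cells, fell from 6.32, 6.31 and 6.32 to 5.91, 6.01 and 6.08 (difference -0.32, limma adjusted p = 0.00517). Its groups lay apart by more than the spread within either. The authors' deposited table lists larger log2 fold changes for Cd40 (-0.94) and Tnfrsf8 (0.91).

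The other TRAF-binding receptors did not pass. Ltbr, the lymphotoxin beta receptor, stood at 9.65 ± 0.09 and 9.78 ± 0.07 (SD, n = 3; difference 0.14, 95% interval -0.02 to 0.29), and the difference was 0.08 without wild-type library 3. Tnfrsf9, or 4-1BB, differed by -0.25 and passed without knockout library 2 (-0.39, limma adjusted p = 0.0330), whereas it was -0.11 without knockout library 1 (0.489). Tnfrsf18, or GITR, differed by -0.22 and passed without wild-type library 2 (-0.31, limma adjusted p = 0.0160) and after intensity-dependent centring (0.0483). Tnfrsf14, or HVEM, at 2.07 and 2.02, passed without that same library (-0.07, limma adjusted p = 0.0407) and after quantile normalization (0.0376) or intensity-dependent centring (0.0249). The authors' deposited table gives Tnfrsf14 a log2 fold change of -2.06, not called there (adjusted p = 0.187). Relt, a receptor of blood cells, differed by -0.13 from 9.73, or by -0.08 without wild-type library 1 and -0.07 after quantile normalization. Tnfrsf11a, or RANK, which drives osteoclast formation, differed by 0.15 from 6.38 and passed without the variance trend (limma adjusted p = 0.0379). Cd27, Tnfrsf4 (OX40) and Eda2r differed by 0.08, 0.03 and 0.02 at wild-type levels of 4.84, 4.34 and 1.06, and Cd27 by 0.05 after quantile normalization or without knockout library 1. Tnfrsf19, or TROY, was not tested, at -1.97 in every library.

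The remaining receptors were grouped as decoys or unassigned. Tnfrsf11b, osteoprotegerin, the soluble decoy for RANKL, was listed at 0 in all libraries. Tnfrsf26, Tnfrsf22 and Tnfrsf23 form a mouse gene cluster on chromosome 7 (143607659 to 143685872, GRCm38), and Tnfrsf22 and Tnfrsf23 are known in mouse as decoy receptors for TRAIL. All 3 rose, a result that held after quantile normalization and intensity-dependent centring. Tnfrsf26 had values of 11.07, 11.32 and 10.81 (wild type) against 11.61, 12.26 and 11.88 (knockout). Both groups spread widely but did not overlap, and the difference was 0.85 (SE 0.17, limma adjusted p = 0.00414). Tnfrsf22 rose from 9.11 to 9.41 (difference 0.30, limma adjusted p = 0.00700) and Tnfrsf23 from 7.47 to 7.82 (difference 0.34, limma adjusted p = 0.00371). Of the 31-base words of Tnfrsf23 transcripts 26.6% occur in Tnfrsf22, so the split of reads within this pair is uncertain. Of those of Tnfrsf22 38.3% occur in other genes and 25.5% in Tnfrsf23, so some are shared outside the pair. Of those of Tnfrsf26 0.691% occur in any other gene. A further gene, E230032D23Rik, overlaps this cluster on the other strand, as Gm12269 does Tnfrsf13b and Tnfsf13os does Tnfsf12, and whether the counting used strand is not stated. The flanking gene beside Tnfrsf26, Cars, was not called (-0.11), nor was Osbpl5 beside Tnfrsf23 (0.19).

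**Figure D3:**
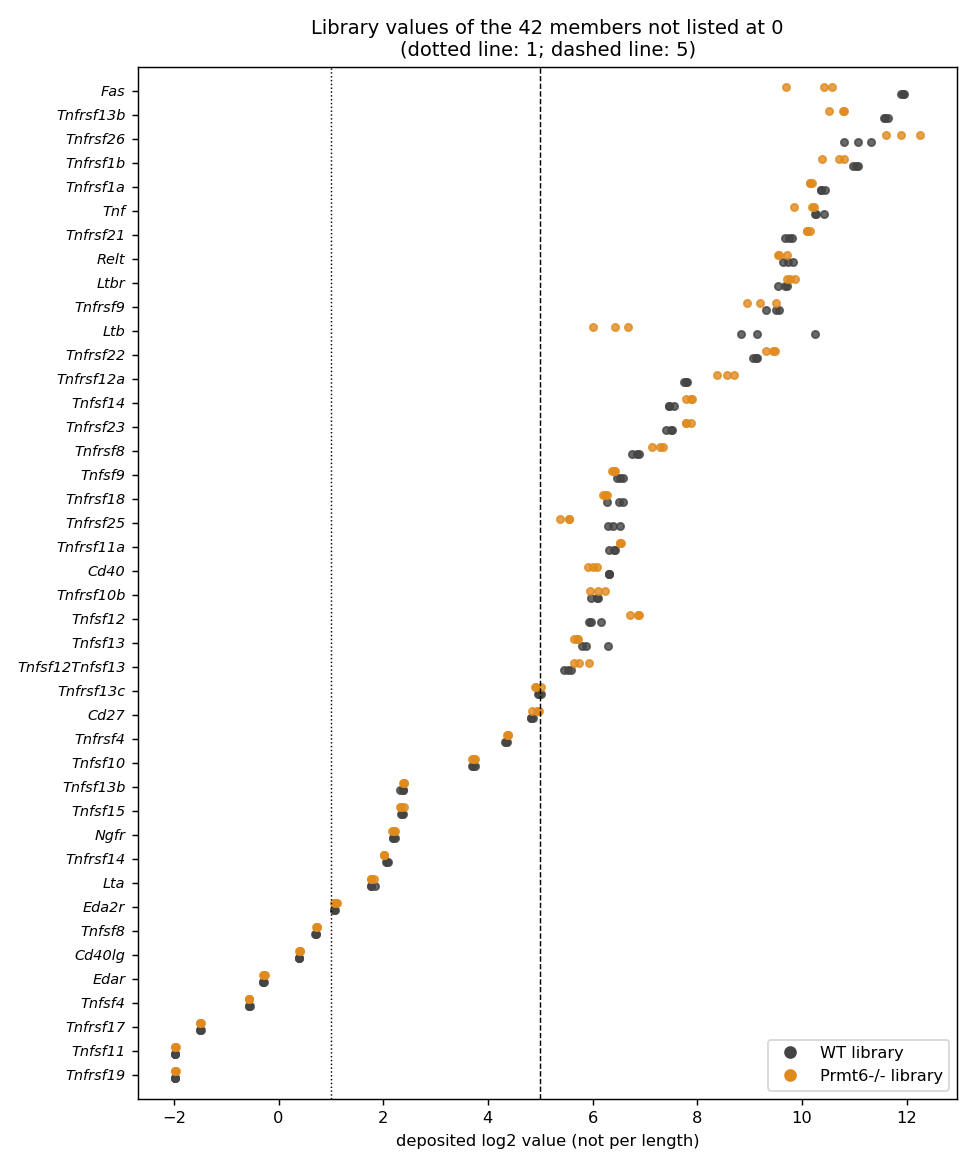
Deposited log2 values of the 42 members not listed at 0 in every library, 1 point per library, ordered by the wild-type mean, with values not scaled by gene length. The dotted line marks the value of 1 used for testing and the dashed line the mean of 5 below which no member was called.

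To set levels of different genes side by side, each mean was reduced by the log2 of the length in kilobases of the longest coding transcript (GENCODE, GRCm38), for the 25 members with a mean of at least 5. On this log2 level per kilobase Fas was highest in the wild type, at 11.35, followed by Tnfrsf13b at 10.25, Tnf at 9.60 and Tnfrsf26 at 9.43. In the knockout Tnfrsf26 was highest, at 10.28, followed by Fas at 9.66, Tnf at 9.37 and Tnfrsf13b at 9.35. Ltb went from rank 6, at 9.19, to rank 16, at 6.15. Tnfrsf12a went from rank 12 to rank 8 and Tnfsf12 from rank 19 to rank 15. These levels and ranks rest on the compressed scale of the library values, on which differences between genotypes can be understated.

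A total of 24 ligand and receptor pairs were written down from textbook knowledge, and in 14 both sides were tested. By the limma calls the pair of TWEAK and Fn14 (Tnfsf12 and Tnfrsf12a) was the pair with both sides called, and both were higher. In 3 pairs the ligand alone was called: Ltb with Ltbr, and Tnfsf14 with Ltbr and with Tnfrsf14. In 7 pairs the receptor alone was called, among them Tnf and Lta with Tnfrsf1a and Tnfrsf1b, where the receptors were lower, and Tnfsf15 with Tnfrsf25. In no pair were the sides called in opposite directions. The authors' deposited table holds a further pair with both sides called, APRIL and TACI (Tnfsf13 and Tnfrsf13b), both lower. Whether ligand and receptor differed in their change was not tested.

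**Figure D4:**
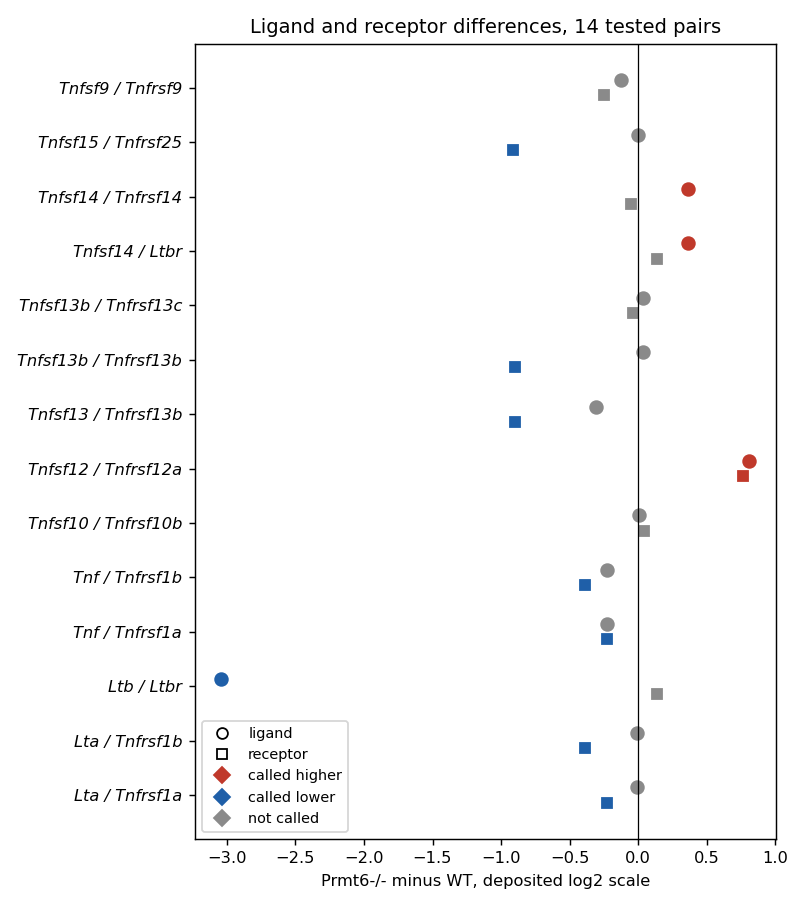
Differences of ligand (circle) and receptor (square) for the 14 pairs with both sides tested (knockout minus wild type, deposited log2 units) coloured by call. Tnfsf12 and Tnfrsf12a lie together at 0.81 and 0.77, whereas Ltb at -3.04 and Ltbr at 0.14 lie far apart.

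In position, 24 of the 46 members lay in 9 groups of neighbours separated by less than 300 kb. Calls within such groups were not uniform. The chromosome 7 receptors all rose. Of Ltb, Tnf and Lta on chromosome 17 Ltb was the gene called, and of Tnfsf9, Cd70 and Tnfsf14, also on chromosome 17, Tnfsf14 was. Of Cd27, Ltbr and Tnfrsf1a on chromosome 6 Tnfrsf1a was called, and the chromosome 4 neighbours Tnfrsf1b and Tnfrsf8 were called in opposite directions. Among the knockout libraries, library 1 was lowest for 6 of the 7 lower members, as it was for 59.3% of all genes called lower.

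Genes of the signalling pathway behind these receptors were described from 7 lists written with earlier results of these data known, so their direction is no independent evidence. Leaving out the members, the lists held 68 genes, of which 67 were tested, 31 called lower and 11 called higher, with a median of -0.21. For all genes tested 18.0% were lower, 15.0% were higher and the median was 0.01. Most of the listed genes had a mean of at least 5, and 42.9% of all such genes were called, beside 62.7% of the listed genes tested. The count of listed genes called higher was 7 without knockout library 1.

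Among 24 tested genes known to respond to TNF 17 fell and 2 rose (79.2% called), with a median of -0.84. Bcl2a1b, related to BCL2 and protective against apoptosis, fell by 2.87, and shares sequence with close copies, so its own part is uncertain. The adhesion molecules Icam1 and Vcam1 fell by 2.41 and 2.17, and the chemokine Ccl3 by 1.49. The genes of this list that rose were Csf1, a macrophage growth factor, by 0.63 and the AP-1 factor Junb by 0.29. Cxcl1 stood near 1.45 and 1.47 and was not called. Tnfaip3, the A20 ubiquitin editor, differed by -0.07 at 10.62, a sign that turned when wild-type library 3 (0.02) or knockout library 1 (0.06) was left out and after quantile normalization (0.01). In the non-canonical NF-kB list, the arm used by Ltbr, Cd40 and Fn14, 3 fell and 1 rose of 8. Relb fell by 1.41, Nfkb2 by 1.27 and the ubiquitin ligase Birc3 by 0.93, and Traf2 rose by 0.26. The kinase Chuk and the ligase Birc2 were not called (-0.04 and -0.02). Chuk turned positive without wild-type library 1 or 2 and after quantile normalization, and Birc2 without knockout library 3 and under both other normalizations. In the canonical list 5 of 8 fell and 1 rose (75.0% called). Nfkbie fell by 1.23, Nfkbib by 0.70, Rel by 0.41 and Nfkb1 by 0.37, and Ikbkb and Rela did not pass (limma adjusted p = 0.0528 and 0.212), Ikbkb passing without the variance trend (0.0412) and among genes with a mean of at least 5 (0.0345). After quantile normalization Ikbkb differed by -0.06 (limma adjusted p = 0.402) and Rela by -0.01.

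**Figure D5:**
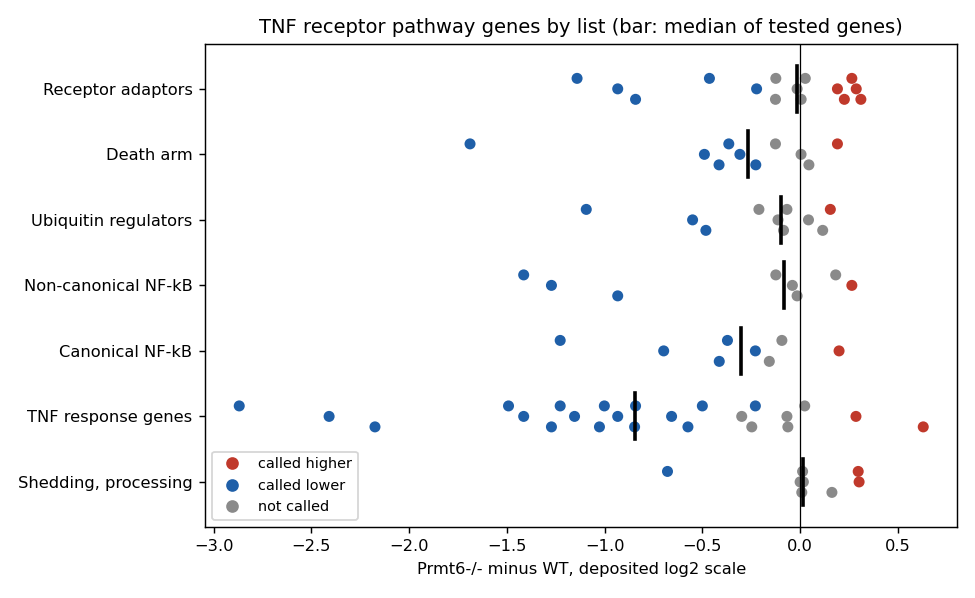
Differences of the tested genes of 7 lists (knockout minus wild type, deposited log2 units) coloured by call, with the median as a bar and genes on 2 lists drawn in both. The median of the TNF response list lies at -0.84 and that of the receptor adaptors at -0.02.

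Receptor adaptors moved in both directions, with 5 higher and 5 lower of 15 (66.7% called). The TRAF-binding protein Tank fell by 1.14, Traf1 by 0.84 and Traf6 by 0.46, and the kinase-binding protein Tab1 rose by 0.31, Tradd by 0.29 and Fadd by 0.19. Tab3 was not called (0.005 at a wild-type level of 4.58) and turned negative without wild-type library 2, without knockout library 2 or 3 and under both other normalizations. In the list of the death arm, which holds Fas and Tnfrsf1a themselves, 6 of 10 were lower and 1 higher (70.0% called). Beside Fas, caspase-8 (Casp8) fell by 0.49, the necroptosis effector Mlkl by 0.42, the BH3-only protein Bid by 0.37 and Cflar, which restrains caspase-8, by 0.31. Ripk3, the necroptosis kinase, differed by 0.004, within a range of -0.061 to 0.085 with single libraries left out. Of 10 ubiquitin regulators 3 fell and 1 rose. That is 40.0% called, beside 33.0% of all genes tested and 42.9% of those with a mean of at least 5. Tnip1 fell by 1.09, Tax1bp1 by 0.55 and the deubiquitinase Cyld by 0.48. Rbck1 rose by 0.15 (limma adjusted p = 0.0408), which was lost whichever of the 6 libraries was left out (adjusted p from 0.0653 to 0.114), and its difference was 0.24 after quantile normalization. Tnip2 was not called (0.04).

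Of 8 genes for shedding and processing 2 rose and 1 fell. The share called, 37.5%, lay between the 33.0% of all genes tested and the 42.9% of those with a mean of at least 5. Adam17, the protease that frees TNF and its receptors from the membrane, fell by 0.68. Its relative Adam10, which cuts Fas ligand, rose by 0.30 and the signal peptide peptidase-like protein Sppl2b by 0.30. Furin, which processes BAFF and APRIL, differed by 0.16 and passed without wild-type library 2 (0.25, limma adjusted p = 0.0398) and after quantile normalization (0.24, adjusted p = 0.0380), whereas it was 0.09 without wild-type library 1 (0.430). Sppl2a and the Adam17 partner Rhbdf2 were not called, and both signs were seen with single libraries left out (-0.052 to 0.059 and -0.056 to 0.068).

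Markers of other cell types were read in the same libraries. Of 7 tested T-cell markers Cd3d rose by 0.44 and Lck fell by 0.28, while Cd3e was too low to test. That is 28.6% called, beside 33.0% of all genes tested. Summed log2 T-cell levels were 6.99 to 7.04 in wild-type and 7.001 to 7.05 in knockout libraries. For the NK list they were 10.47 to 11.39 and 8.97 to 10.48, carried by Nkg7, which fell by 1.36, with Ncr1 too low to test and Gzma listed at 0. In the monocyte and macrophage list, of which 7 of 8 genes were in the table, Csf1r fell by 1.83, Cd68 by 0.94 and Ccr2 rose by 1.07, and the summed level, carried by Ly6c2 (14.46 and 14.48), was 14.64 to 14.81 and 14.59 to 14.68. The dendritic list, with Xcr1 lower by 0.35 and Zbtb46 by 0.25, summed to 10.55 to 10.81 and 10.56 to 10.71, and the mast and basophil list, with Cpa3 lower by 0.60 and Gata2 and Ms4a2 higher by 0.33 and 0.17, to 10.65 to 11.04 and 10.68 to 10.97. Erythroid, megakaryocyte and stromal lists summed to at most 5.89, with Klf1 higher by 0.22. The part of these cell types in the differences of Ltb, Cd40 and the other members was not tested.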

How the data were processed

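Poly(A) RNA of 3 wild-type and 3 Prmt6-/- libraries of L-GMP cells was sequenced. Tools named by the submitters' processing notes are Trim Galore, kallisto and HOMER, with no version, and the build named is GRCm38. Per the file headers, HOMER wrote the table from read counts. The deposited log2 values had been normalized between libraries by the authors, with a transformation that is not named. The deposited table also holds the authors' log2 fold change, p-value and adjusted p-value, from a test that is not named. Depth is unknown, so no counting interval is given.

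The genotype difference was fitted in R 4.3.3 by limma 3.58.1, with a mean-variance trend. Tests were two-sided, with Benjamini-Hochberg adjustment over the 15454 genes that reached a value of 1 in 3 or more libraries, and the script was tested on simulated data. A row naming no gene (1 of 30038) was left out. Alternatives were quantile normalization, intensity-dependent centring, no filter, a mean of at least 5, no trend, a replicate block, the authors' table and leaving out each library. Members and lists were chosen with earlier results of these data known. Every member is named, and of each pathway list up to 4 genes with the smallest p and up to 2 with the largest, others after their values were seen. Gene positions and 31-base words came from GENCODE annotation of GRCm38, promoters from RefSeq.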

Additional observations from a re-analysis of the deposited data

How the results depend on the processing

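Of the 9 members called higher 8 kept the call in all 12 alternatives run on the library values, and of the 7 called lower 5 did. The exceptions were the Tnfsf12 and Tnfsf13 read-through, Tnfrsf1a and Tnfrsf1b. Counts of members ran from 8 to 9 higher and from 6 to 10 lower. Over all genes the counts were 2324 higher and 2778 lower, or 2827 and 2378 after quantile normalization, and the Prmt6 difference lay between -2.25 and -2.05 with single libraries left out and is -7.66 in the authors' deposited table. Pathway genes called higher numbered 11, and 7 to 9 with single libraries left out. The cause was not tested. The authors' deposited table gave 9 higher and 8 lower members. With the replicate number as a block 8 members were higher and 8 lower, and it changed no other call than those of Tnfsf13 and the read-through. Same-numbered libraries correlated at 0.09, 0.07 and 0.17 in their deviations, so the numbers were not taken as pairs, although every library correlated best with its own number.

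Reversed signs occurred at members and pathway genes that were not called. After quantile normalization Ngfr stood at -0.00822, Tnfsf10 at -0.016, Tnfsf15 at -0.00631, Birc2 at 0.039, Chuk at 0.010, Sppl2a at 0.082, Tab3 at -0.026 and Tnfaip3 at 0.00693. After intensity-dependent centring Ngfr stood at -0.00699, Tnfsf10 at -0.016, Tnfsf15 at -0.012, Birc2 at 0.00525, Sppl2a at 0.027 and Tab3 at -0.024. With single libraries left out Lta ran from -0.032 to 0.014, Ngfr from -0.010 to 0.020, Tnfrsf10b from -0.028 to 0.120, Tnfsf10 from -0.00640 to 0.022, Tnfsf15 from -0.017 to 0.013, Birc2 from -0.051 to 0.015, Chuk from -0.134 to 0.00941, Rhbdf2 from -0.056 to 0.068, Ripk3 from -0.061 to 0.085, Sppl2a from -0.052 to 0.059, Tab3 from -0.011 to 0.026 and Tnfaip3 from -0.168 to 0.063. A pseudocount does not apply to log2 values, so that alternative was not run. Differences of members with a mean under 5 are understated by the deposited scale. Beside the authors' log2 fold changes, so are those of some members above 5. Among these are Tnfrsf25, Cd40, Tnfsf12 and Tnfrsf8, with means of 5.95, 6.16, 6.42 and 7.04.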
